A study of Mus musculus with 12 samples.

Results

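Established induced pluripotent stem (iPS) cells were compared with GFP-positive colonies, which the labels describe as partially reprogrammed, over every gene that the arrays named. The comparison rests on 3 arrays titled as Notch-1 iPS cells and 3 arrays of GFP-positive colonies, 6 of the 12 arrays of a study of a mouse model of NOTCH1 leukemia. The other 6 arrays held GFP-negative colonies, labelled as reprogrammed, and leukemia cells from the spleen, and they entered the fit as well. All 4 groups carry the genotype R26rtTA;Col1a12lox-4F2A, which pairs a doxycycline-dependent transactivator with a cassette that it switches on, coding for Pou5f1 (Oct4), Sox2, Klf4 and Myc. The labels trace the iPS cells and both kinds of colony back to the leukemia cells, and name mES medium as the medium of the iPS cells. What GFP marks, whether doxycycline was present at harvest, whether the iPS arrays came from 1 line, and how old and of which sex the mice were, are not stated in the labels used here. Each gene was read by 1 probe set, the one with exactly 1 gene symbol and the highest mean over the 12 arrays, which gave 22180 genes. Values are log2 levels on the scale of robust multi-array averaging (RMA), and differences are the iPS mean minus the GFP-positive mean, so a negative difference means a higher level in the colonies. Sample titles number biological replicates within each group, but no label names separate cultures or animals, so the p-values reflect the variation among these arrays, which may be technical. The spread behind each standard error (SE) and p-value is pooled over all 4 groups, GFP-negative colonies and leukemia included.

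Reprogramming by these factors silences genes of the starting cell, brings up epithelial genes, and only late switches on the self-sustaining network around Nanog and endogenous Oct4 (Pou5f1). Colonies that stop on the way are known to keep some genes of the starting cell and to express genes of unrelated lineages. Pluripotent mouse cells are also known for low expression of major histocompatibility (MHC) class I genes and a muted interferon response, and a small share of them pass through a state that resembles the 2-cell embryo and is marked by the Zscan4 genes.

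The 3 GFP-positive arrays lay at very different distances from the iPS cells. Replicate 2 was closest, with 338 genes at least 2-fold below the iPS mean and 750 at least 2-fold above it. Replicate 1 had 1061 below and 1410 above, and replicate 3 had 1708 below and 1888 above. The iPS arrays were nearly alike. Each had at most 6 genes on either side that lay at least 2-fold from the mean of the other iPS arrays. The median SD of a gene over 3 arrays was 0.0998 in iPS cells and 0.217 in GFP-positive colonies. Transcripts of the sex chromosomes also separated the arrays. Xist, the RNA that silences 1 X chromosome in female cells, measured 7.54, 7.82 and 7.57 in iPS cells and 7.84, 7.24 and 11.0 in the GFP-positive colonies, and the Y-linked Eif2s3y measured 7.69, 7.24 and 7.01 against 8.53, 7.49 and 4.18. GFP-positive replicate 3 was thus high in Xist and low in Eif2s3y where the other 5 arrays were the reverse, and it is also the array with the lowest pluripotency genes and the highest leukocyte genes. The leukemia arrays measured 11.45, 11.62 and 11.53 for Xist and 4.4, 3.86 and 3.57 for Eif2s3y, so in these transcripts they resembled replicate 3 and not the iPS cells or the other colonies that the labels trace back to leukemia. The part of these differences in the results was not tested. In such bulk samples, fewer cells of a type and less RNA per cell cannot be told apart.

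The labels were checked against markers of pluripotent cells. Nanog, Sox2, Zfp42 and Pou5f1 were higher on every iPS array than on every leukemia array. Nanog, the homeodomain factor at the centre of the pluripotency network, measured 12.32, 12.39 and 12.21 on the iPS arrays against 9.56, 11.93 and 7.97 on the colonies, and 4.99, 4.32 and 4.85 in leukemia. Sox2 measured 10.55, 10.48 and 10.42 against 8.46, 10.21 and 6.76 in the same order. Replicate 2 thus reached nearly the iPS level of both factors, and replicate 3 lay between leukemia and iPS cells. Dppa5a, another marker of pluripotent cells, was low throughout, with 6.13, 6.25 and 5.93 against 5.68, 5.81 and 5.52, and 5.67, 5.82 and 5.6 in leukemia.

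Between the groups, 2304 of 22180 genes (10.4%) passed an adjusted p of 0.05 in limma with Benjamini-Hochberg adjustment. Of these, 1365 were higher in iPS cells (6.15% of all genes) and 939 were lower (4.23%), so 59.2% of the calls were higher. With cyclic loess normalization of the arrays in place of the deposited scaling, the split turned to 1000 higher and 1173 lower, 46% higher. Large differences lay mostly on the colony side: 399 genes were called higher by at least 2-fold (1.8%) and 547 lower (2.47%), and 9 and 35 differed by at least 16-fold. Whether called or not, 3.53% of genes were at least 2-fold higher in iPS cells by their means and 5.47% lower. The groups did not overlap for 21% of genes with all iPS arrays above all colonies and for 17.1% with all below. The median difference of all genes was 0.00796. The counts changed when 1 array was left out. Such fits have fewer arrays, so a call lost there is not by itself a smaller difference, and the cause was not tested. The counts were 560 higher and 340 lower without GFP-positive replicate 1, 1995 and 1427 without replicate 2, and 768 and 421 without replicate 3. Without iPS replicate 1, 2 or 3 they were 405 and 194, 418 and 206, and 409 and 188. The calls that held in all 6 of these fits numbered 332 higher and 160 lower. Leaving out GFP-negative replicate 1, which shares only the estimate of the spread, gave 2709 and 2099. On the stricter measure of lying at least 2-fold from the iPS mean on each of the 3 GFP-positive arrays, 176 genes (0.794%) were below and 511 (2.3%) above. They are 52.1% of the genes that replicate 2 had below the iPS mean by that amount, and 68.1% of those it had above.

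**Figure D1:**
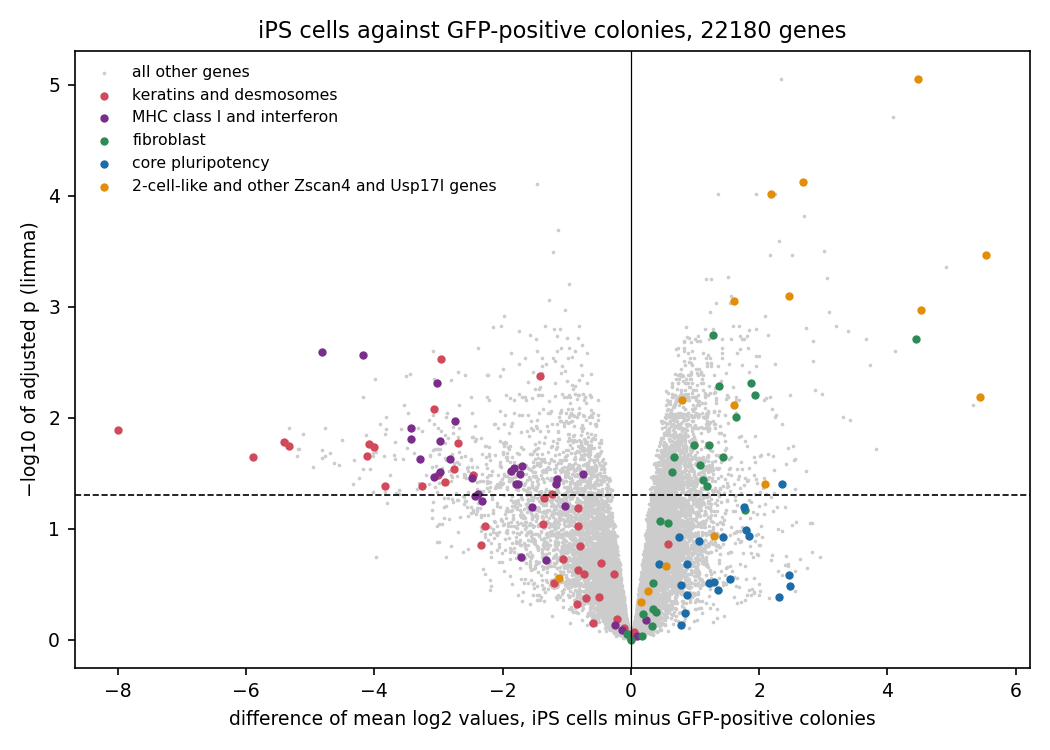
Difference of mean log2 values (iPS cells minus GFP-positive colonies, x axis) against the −log10 of the adjusted p from limma (y axis) for 22180 genes, 1 point each, with the dashed line at an adjusted p of 0.05. Zscan4 and Usp17l genes lie at the upper right, keratin and desmosome genes at the far left, and most core pluripotency genes lie to the right of 0 but under the line.

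**Figure D2:**
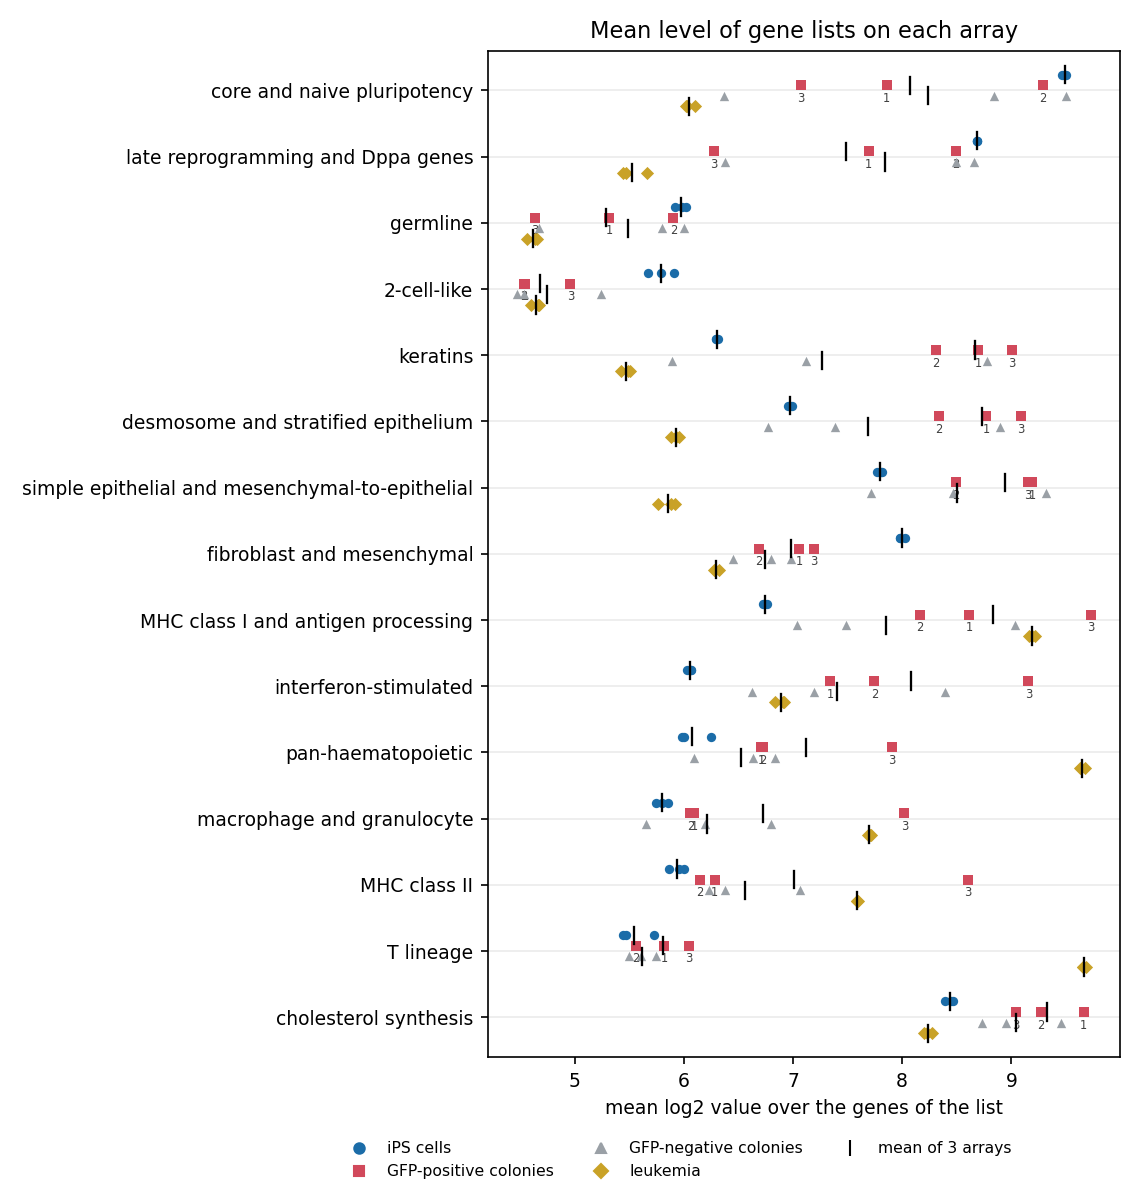
Mean log2 value over the genes of each list on each of the 12 arrays (1 point per array, small numbers give the GFP-positive replicate, black ticks the mean of 3 arrays). GFP-positive replicate 2 lies close to the iPS arrays for pluripotency genes but with the other colonies for keratin, MHC class I, interferon and fibroblast genes.

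Genes of the pluripotency network were lower in the colonies on average, but the colonies differed widely among themselves and 1 gene passed the test. Of 20 measured core and naive pluripotency genes 1 was called higher in iPS cells (5%, against 6.15% of all genes) and 0 were called lower. The median difference was 1.33. All iPS arrays lay above all colonies for 14 of the 20, against 21% of all genes. The called gene was Tbx3, a T-box factor that sustains self-renewal, with 9.82, 9.9 and 9.82 in iPS cells and 6.91, 9.18 and 6.37 in the GFP-positive colonies, a difference of 2.36 ± 0.63 (SE), adjusted p = 0.0395. Its call was lost without GFP-positive replicate 1 or 3 and without any 1 iPS array, with adjusted p up to 0.125. Nanog differed by 2.49 ± 1.53 (SE), adjusted p = 0.329, although all 3 iPS arrays lay above all 3 colonies. Its SD was 1.99 in the GFP-positive and 3.78 in the GFP-negative colonies, and that SE pools both with the other groups. On the single arrays, 15 of the 20 genes lay at least 2-fold below the iPS mean in replicate 1 and 18 in replicate 3, but 0 in replicate 2. Of all 22180 genes, 1061, 1708 and 338 lay that low in the same order. None of the 20 was that low on every colony array. Nr0b1 (Dax1), a nuclear receptor of the network, measured 11.57, 11.55 and 11.55 against 9.76, 11.78 and 6.19, and Tcl1, an activator of AKT signalling, 10.57, 10.67 and 10.63 against 7.73, 10.93 and 5.84. In both, replicate 2 lay above all 3 iPS arrays and replicate 3 far below them. Esrrb, an orphan nuclear receptor of naive cells, measured 7.31, 6.66 and 7.4 against 5.4, 7.49 and 5.86, and Zfp42 (Rex1) 9.34, 9.33 and 9.22 against 8.69, 10.66 and 6.19. Replicate 2 was above all 3 iPS arrays for both. Without GFP-positive replicate 2 the number called higher in iPS cells was 5 of 20, and with GFP-negative replicate 1 left out it was 12. With array weights it was 16, and with the replicate block 0.

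Of the 4 cassette factors, Pou5f1 was the one called. It measured 8.1, 8.08 and 8.14 on the iPS arrays against 7.14, 7.45 and 7.06 on the colonies, a difference of 0.89 ± 0.17 (SE), adjusted p = 0.0115, and the groups did not overlap. The call was lost without iPS replicate 3 (adjusted p = 0.0514). Sox2 differed by 2.01 ± 1.32 (SE), adjusted p = 0.364. Its SD was 1.73 in the GFP-positive and 3.22 in the GFP-negative colonies, and that SE pools all 4 groups. Klf4 measured 9.31, 9.42 and 9.26 against 8.06, 9.0 and 9.43 and Myc 9.02, 8.83 and 8.99 against 8.68, 8.47 and 9.49, and in both the groups overlapped. Whether cassette transcripts add to these probe sets was not tested.

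Genes that come on late in reprogramming followed the same arrays. Of 18 measured late reprogramming and Dppa genes 1 was called higher (5.56%, against 6.15% of all genes), 0 lower, with a median difference of 1.17. All iPS arrays lay above all colonies for 12 of the 18, against 21% of all genes. The called gene was Zfp57, a zinc finger protein that protects imprints, with 9.15, 9.18 and 9.11 against 7.99, 8.54 and 7.6 and a difference of 1.1 ± 0.31 (SE), adjusted p = 0.0484. Without GFP-positive replicate 1 or 3, or any 1 iPS array, its call was lost. Utf1, a chromatin-bound factor of undifferentiated cells, measured 9.1, 9.18 and 9.07 in iPS cells and 8.01, 9.03 and 4.63 in the GFP-positive colonies. Dppa2 measured 10.62, 10.61 and 10.61 against 9.39, 10.56 and 6.11 and Dppa4, its partner, 10.36, 10.26 and 10.32 against 9.22, 10.26 and 5.82. For these genes replicate 2 was close to the iPS arrays and replicate 3 close to leukemia, where Utf1 measured 5.15, 4.18 and 4.04 and Dppa2 5.34, 5.36 and 5.73. Dnmt3l, a cofactor of the de novo DNA methyltransferases, measured 8.47, 8.19 and 8.51 against 7.37, 8.06 and 5.61, and Dppa3 (Stella) 6.39, 6.43 and 6.6 against 5.14, 6.88 and 4.96, and neither was called. Among 11 measured genes of the Nodal pathway and the epiblast there was 1 call (9.09%, against 10.4% of all genes). It was Foxd3 with a difference of 0.52 ± 0.14 (SE), adjusted p = 0.0432, which was lost in each of the 6 fits without 1 array.

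In contrast, the Zscan4 and Usp17l genes were at iPS levels on no colony array. Of 9 measured genes of the 2-cell-like state 4 were called higher in iPS cells, against 6.15% of all genes, and 0 lower. The median difference was 1.3, and 4 lay at least 2-fold below the iPS mean on all 3 colony arrays, against 0.794% of all genes. All iPS arrays lay above all colonies for 6 of the 9 and below them for 1, against 21% and 17.1% of all genes. Of the 5 not called, Tdpoz4 differed by 0.16. The 1 member with a mean above 6 over all arrays differed by -1.12. Zscan4d, a zinc finger protein of the 2-cell embryo linked to telomere upkeep, measured 7.13, 7.22 and 7.51 on the iPS arrays against 4.74, 4.6 and 4.47 on the colonies, a difference of 2.68 ± 0.17 (SE), adjusted p = 7.53e-05. Zscan4c measured 6.93, 6.43 and 7.27 against 4.36, 4.38 and 4.48. No colony array overlapped the iPS arrays for either gene, and the colonies lay at the leukemia levels of 4.51, 4.89 and 4.6 for Zscan4d and 4.68, 4.37 and 4.23 for Zscan4c. Usp17la, of a family of deubiquitinating enzymes, measured 6.47, 5.81 and 6.47 against 4.81, 4.72 and 4.37, and Tmem92, a transmembrane protein gene of the 2-cell state, 6.82, 6.32 and 6.43 against 4.35, 3.87 and 5.07. The calls of Zscan4d, Zscan4c and Usp17la held in all 6 fits without 1 array, while that of Tmem92 was lost in each. The promoters of Zscan4c and Zscan4d are shown because the upstream windows of these neighbouring genes are near copies of each other. Whether their probe sets share signal was not tested, and upstream letters cannot show it. Each window holds the 250 bases before the annotated start, read 5′ to 3′ along the gene from RefSeq build GRCm38.p6, with the letters TATAAA in capitals. The windows lie at chr7:11005495-11005744, plus strand, and at chr7:11166149-11166398, minus strand.
Zscan4c promoter: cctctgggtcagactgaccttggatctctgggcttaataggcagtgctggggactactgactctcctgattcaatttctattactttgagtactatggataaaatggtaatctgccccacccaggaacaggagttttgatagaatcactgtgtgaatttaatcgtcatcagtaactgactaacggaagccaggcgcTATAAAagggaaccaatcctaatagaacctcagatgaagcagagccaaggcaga
Zscan4d promoter: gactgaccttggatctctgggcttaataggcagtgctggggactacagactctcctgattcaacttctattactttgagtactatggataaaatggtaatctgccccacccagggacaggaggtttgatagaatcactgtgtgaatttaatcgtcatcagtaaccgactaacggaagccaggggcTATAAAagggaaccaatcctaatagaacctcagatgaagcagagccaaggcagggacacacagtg
Aligned blocks cover 233 of the 250 bases of the pair, and the longest identical run is 55 bases. TATAAA was searched on both strands. It occurs in 11.9% of the 250-base windows of all genes tested and in 2 of the 6 matched windows of the 2-cell-like list.

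Several of the largest increases in iPS cells came from the same families. Zscan4e had the largest difference of all named genes on that side, with 9.67, 9.9 and 9.6 in iPS cells and 4.01, 4.27 and 4.26 in the GFP-positive colonies, a difference of 5.54 ± 0.47 (SE), adjusted p = 0.00034. That is 46.6-fold. Usp17lc measured 8.64, 8.53 and 8.61 against 3.13, 3.09 and 3.2, 43.7-fold, Zscan4a 10.91, 10.84 and 11.01 against 6.07, 6.42 and 6.68 and Zscan4b 8.38, 8.69 and 8.42 against 3.83, 4.15 and 4.08. In each of these 4 genes the 3 colonies lay within 1 log2 unit of one another and far below the iPS arrays. The families were counted whole after these values were seen. Of all genes, 6.15% were called higher and 4.23% lower. All 5 Zscan4 genes and all 5 Usp17l genes with a probe set were called higher, with median differences of 4.47 and 1.61, and all 10 were called in each of the 6 fits without 1 array. Members of 1 family can share sequence, so they are not independent. Of 6 Tdpoz genes, which encode MATH and BTB domain proteins of the early embryo, 3 were called higher, 2 without GFP-positive replicate 2 and 1 without any other of the 6 arrays. Of 30 Pramel genes 5 were called higher, against 6.15% of all genes, 0 were called lower and 25 were not called, with a median of 0.0949. Pramel31 led with 7.36, 6.78 and 7.62 against 3.06, 3.41 and 2.93, followed by Pramel19 at 9.12, 8.75 and 8.85 against 6.1, 5.54 and 5.17. Rhox13, a homeobox gene of the X-linked reproductive cluster, measured 7.18, 7.71 and 8.08 against 4.69, 4.89 and 4.36. The calls of Pramel31, Pramel19 and Rhox13 held in all 6 fits, in which 4 or 5 Pramel genes were called. Among the GFP-negative arrays replicate 3 alone showed part of the signal, with 3.95, 3.89 and 6.14 for Zscan4e and 3.18, 3.37 and 7.51 for Usp17lc.

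**Figure D3:**
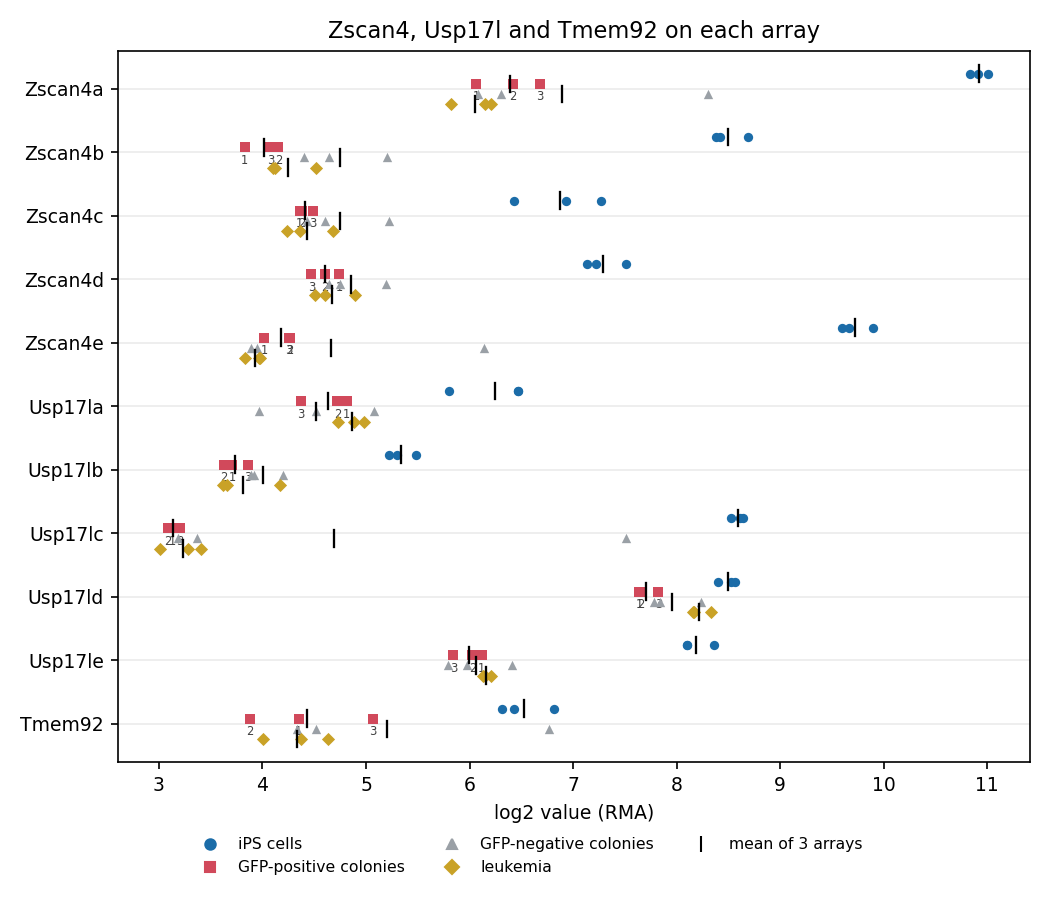
Log2 values (x axis) of 5 Zscan4 genes, 5 Usp17l genes and Tmem92 on each array (points) with the mean of 3 arrays (black ticks), for the 4 groups. For Zscan4e and Usp17lc the 3 GFP-positive colonies lie at the leukemia level and the iPS arrays more than 4 log2 units above.

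Some germline genes were also higher in iPS cells. Of 23 measured members 5 were called higher (21.7%, against 6.15% of all genes) and 0 lower, with a median difference of 0.449. Dazl, an RNA-binding protein of germ cells that naive stem cells express, measured 9.39, 9.39 and 9.32 on the iPS arrays against 6.34, 7.81 and 5.78 on the colonies, a difference of 2.72 ± 0.66 (SE), adjusted p = 0.0299. Piwil2 (Mili), a Piwi protein that loads small RNAs against transposons, measured 7.02, 6.66 and 6.38 against 5.21, 5.62 and 5.33, and Ddx25, a testis RNA helicase, 6.04, 5.76 and 6.23 against 4.95, 5.1 and 4.65. The iPS arrays lay above all colonies for these 3 genes. Ddx4 (Vasa) differed by 0.87 ± 0.17 (SE), adjusted p = 0.013, and Mov10l1, the helicase of the Piwi pathway, by 0.98 ± 0.27 (SE), adjusted p = 0.0427. The calls of Piwil2 and Ddx25 held in all 6 fits without 1 array, and the count of calls ranged from 2 without iPS replicate 1 or 3 to 9 without GFP-positive replicate 2. It was 3 without GFP-positive replicate 1, GFP-positive replicate 3 or iPS replicate 2. Hormad1, a protein of the meiotic chromosome axis, was not called and went the other way, with 5.04, 4.31 and 4.65 against 6.88, 7.7 and 3.79: replicates 1 and 2 lay above the iPS arrays and replicate 3 below them.

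On the other side, the colonies carried some keratins of stratified epithelium at high levels on all 3 arrays. Of 18 measured keratins 9 were called lower in iPS cells, against 4.23% of all genes, and 0 higher. The median difference was -2.31, and 9 lay at least 2-fold above the iPS mean on every colony array, against 2.3% of all genes. Other members differed less and were not called, among them Krt1, Krt4, Krt10 and Krt15 with -0.27, -0.041, -0.11 and -0.46. Krt6a, the keratin of activated and wound-edge keratinocytes, had the largest difference of any named gene. It measured 4.19, 4.32 and 3.85 in iPS cells and 11.79, 11.63 and 12.92 in the GFP-positive colonies, a difference of -7.99 ± 1.54 (SE), adjusted p = 0.013, 255-fold lower in iPS cells. The SD of Krt6a was 0.7 in the GFP-positive and 4.23 in the GFP-negative colonies, which enter the same SE. Krt14, the keratin of basal epidermal cells, measured 6.57, 6.43 and 6.68 against 12.07, 12.36 and 12.93, and Krt16, a partner of Krt6a, 6.15, 5.81 and 6.2 against 11.4, 10.55 and 12.17. For these 3 genes the lowest colony array lay more than 4 log2 units above the highest iPS array, and replicate 2 was as high as or close to replicate 1. Krt17 measured 9.23, 9.26 and 9.1 against 11.8, 11.93 and 12.11. Krt8, which forms filaments with Krt18 in simple epithelia, measured 8.74, 8.7 and 8.57 against 12.2, 11.71 and 11.86 with an adjusted p of 0.0411, and Krt18 measured 8.61, 8.63 and 8.73 against 12.03, 11.13 and 9.63 with 0.0943. The leukemia arrays lay at 4.09, 3.72 and 4.31 for Krt6a and 5.16, 5.26 and 5.73 for Krt14, near or below the iPS arrays. The keratin counts were 2 without GFP-positive replicate 1 or 3, 8 without replicate 2 and 1 without any 1 iPS array, where Krt6a reached an adjusted p of 0.0561 at most. Krt6b, with -3.06 ± 0.52 (SE), adjusted p = 0.0084, was the 1 keratin of the list called in all 6 of these fits. Krt42, outside the list, was called in the other direction, with 9.58, 9.77 and 9.61 against 7.52, 8.84 and 7.07. It was found when all 53 keratin genes on the array were counted after the values were seen. Of these, 9 were lower in iPS cells and 1 higher, against 4.23% and 6.15% of all genes, with a median difference of -0.115. These counts were 2 and 0 without GFP-positive replicate 1 or 3, 9 and 1 without replicate 2, and 1 and 0 without any 1 iPS array.

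Junction proteins of the same tissue were likewise higher in the colonies. Of 23 measured genes of desmosomes and stratified epithelium 9 were called lower in iPS cells, against 4.23% of all genes. None was called higher, and the median was -1.2. Dsg3, the desmosomal cadherin of basal epidermis, measured 5.1, 4.91 and 5.12 on the iPS arrays against 9.88, 10.0 and 11.44 on the colonies, a difference of -5.4 ± 1.11 (SE), adjusted p = 0.0167. Dsp, the linker between desmosomes and keratin filaments, measured 6.79, 6.9 and 6.99 against 11.62, 10.28 and 11.1, and Dsc2, a desmosomal cadherin, 4.87, 4.71 and 5.12 against 9.12, 8.39 and 9.22. No colony overlapped the iPS arrays for these genes. Ly6d, a surface protein of stratified epithelium and of lymphoid progenitors, measured 5.82, 5.97 and 5.5 against 8.3, 9.25 and 8.64, and Elf3, an epithelial ETS factor, 6.51, 6.43 and 6.36 against 7.81, 7.62 and 8.09. The calls of Ly6d and Elf3 held in all 6 fits without 1 array. The count was 4 without GFP-positive replicate 1 or 3, 12 without replicate 2 and 2 without any 1 iPS array. Dsg3 was lost without GFP-positive replicate 3 and without each iPS array, with an adjusted p of 0.065 at most.

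Genes of terminal epidermal differentiation were less uniform. Of 23 measured cornified envelope genes 2 were called lower in iPS cells (8.7%, against 4.23% of all genes) and 0 higher. All iPS arrays lay below all colonies for 7 of the 23 and above them for 1, against 17.1% and 21% of all genes. The called genes were Sprr1a, a precursor of the cornified envelope, with 5.04, 5.66 and 5.28 against 10.06, 9.97 and 10.02, and Ivl (involucrin), with 6.34, 6.15 and 6.23 against 10.96, 10.31 and 9.49. Both were above the iPS range on every colony array, but neither call held without 1 iPS array or without GFP-positive replicate 1 or 3. Tgm3, an epidermal transglutaminase, measured 7.96, 7.84 and 7.65 against 7.68, 7.08 and 11.45, so that only replicate 3 was above the iPS arrays. Among proteases and inhibitors of epithelium 4 of 23 were called lower and 3 higher, against 4.23% and 6.15% of all genes. Serpinb5 (maspin) measured 4.29, 4.09 and 4.72 against 9.26, 8.53 and 10.92 and differed by -5.21 ± 1.16 (SE), adjusted p = 0.0219. The kallikreins Klk6 and Klk7, proteases of skin shedding, measured 5.6, 5.85 and 5.66 against 12.47, 9.18 and 9.92 and 6.1, 6.41 and 6.4 against 11.82, 8.51 and 11.12. Replicate 2 was the lowest colony for all 3 genes, yet more than 2 log2 units above the highest iPS array. Without 1 iPS array or without GFP-positive replicate 1, 0 of the 23 were called lower, without replicate 3 it was 1, and without replicate 2 it was 6. Mmp3, a stromal metalloprotease, went the other way with 11.05, 11.13 and 11.06 against 5.96, 6.06 and 9.74, as did the serpin Serpinb2 with 6.83, 6.48 and 6.82 against 4.47, 4.19 and 4.7 (difference 2.25 ± 0.16 (SE), adjusted p = 9.71e-05). The call of Serpinb2 held in all 6 fits without 1 array, and that of Mmp3 was lost in 4. The number called higher was 4 without GFP-positive replicate 2 or 3 and 1 without any other of the 6 arrays.

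Some genes of simple epithelium were higher in the colonies as well. Of 19 measured genes of simple epithelium and of the mesenchymal-to-epithelial transition 6 were called lower in iPS cells and 0 higher. That is 31.6%, against 4.23% of all genes, with a median of -1.04. Cldn3, a tight-junction claudin, measured 7.23, 7.17 and 7.29 in iPS cells and 10.19, 9.21 and 10.4 in the GFP-positive colonies, a difference of -2.7 ± 0.54 (SE), adjusted p = 0.0148. Ocln (occludin) measured 6.15, 6.0 and 6.14 against 8.54, 7.99 and 9.24 and Esrp1, a splicing regulator of epithelia, 8.78, 8.64 and 8.63 against 9.88, 9.38 and 10.21. Cdh1 (E-cadherin), which pluripotent cells also need, measured 11.38, 11.4 and 11.41 against 12.62, 12.2 and 12.48 and missed the threshold with -1.04 ± 0.3 (SE), adjusted p = 0.0504. Epcam measured 9.13, 9.1 and 9.09 against 9.35, 9.3 and 9.65, a difference of -0.33 ± 0.19 (SE), adjusted p = 0.288. The 6 calls fell to 0 without GFP-positive replicate 1 or any 1 iPS array and to 2 without replicate 3. In the basement membrane list 3 of 20 genes were called higher and 2 lower, against 6.15% and 4.23% of all genes. Lama1, the laminin chain of the early embryo, was higher in iPS cells with 9.4, 9.29 and 9.36 against 8.0, 7.77 and 7.18 and held in all 6 fits, while Lama3, the chain of epidermal laminin, was lower with 7.45, 7.34 and 7.42 against 9.41, 9.22 and 10.53, and Itgb4, the integrin of hemidesmosomes that binds it, with 7.06, 6.86 and 7.03 against 9.53, 8.98 and 11.17. Neither Lama3 nor Itgb4 was called without 1 iPS array or without GFP-positive replicate 1 or 3.

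**Figure D4:**
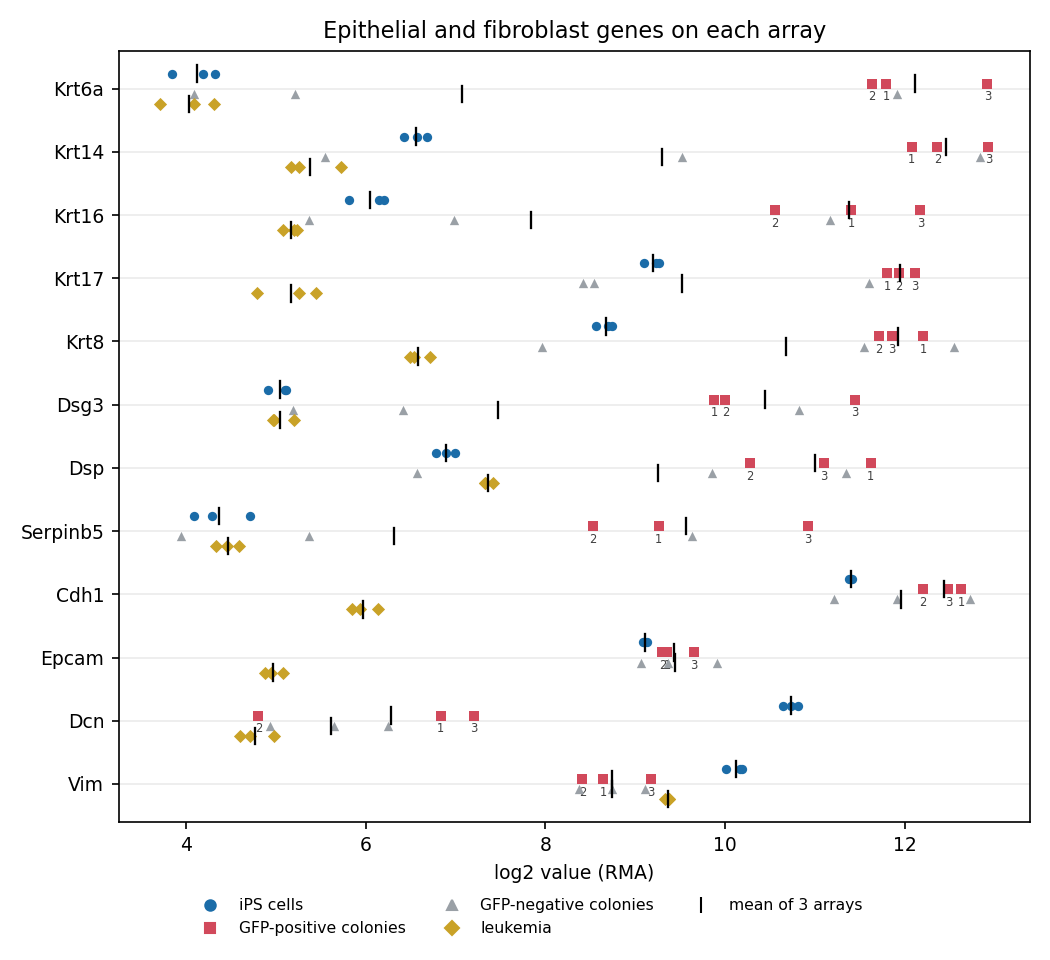
Log2 values (x axis) of keratin, junction and fibroblast genes on each array (points) with the mean of 3 arrays (black ticks), for the 4 groups. Krt6a, Krt14, Krt16 and Dsg3 are high on all 3 GFP-positive colonies and low on the iPS arrays, and Dcn and Vim are higher on the iPS arrays.

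Fibroblast and mesenchymal genes were higher in iPS cells, with the largest share of members called on that side among the lists used here. Of 25 measured members 14 were called higher and 0 lower, against 6.15% of all genes, with a median of 0.978. Dcn (decorin), a small proteoglycan of connective tissue, measured 10.73, 10.64 and 10.81 on the iPS arrays against 6.83, 4.81 and 7.2 on the colonies, a difference of 4.45 ± 0.53 (SE), adjusted p = 0.00194, 21.8-fold higher in iPS cells. Tagln (transgelin), an actin-binding protein of smooth muscle, measured 9.7, 9.55 and 9.61 against 7.7, 7.25 and 8.09, and Vim (vimentin), the mesenchymal intermediate filament, 10.19, 10.01 and 10.17 against 8.65, 8.41 and 9.17. The groups did not overlap for these genes. Col1a1, a collagen I chain, measured 8.82, 8.41 and 8.57 against 7.77, 6.64 and 7.84, and Cdh2 (N-cadherin) 8.68, 8.63 and 8.79 against 6.76, 7.35 and 6.36. Snai2, a zinc finger factor that drives the epithelial-to-mesenchymal transition, measured 5.96, 6.04 and 5.97 against 4.66, 4.78 and 4.7, and Twist1, another such factor, 7.18, 7.07 and 6.7 against 5.48, 6.1 and 5.73. For Vim, the leukemia arrays lay at 9.33, 9.38 and 9.38, between the groups, and for Dcn at 4.99, 4.72 and 4.6. Calls of Dcn, Tagln, Cdh2, Lum, Vim and Snai2 held in all 6 fits without 1 array. The count was 9 without GFP-positive replicate 1, 12 without replicate 2 or 3, 6 without iPS replicate 1 and 7 without iPS replicate 2 or 3. Averaged over the list, the level was 8.03, 7.98 and 7.98 on the iPS arrays and 7.06, 6.69 and 7.19 on the colonies, so replicate 2, the colony closest to iPS cells by pluripotency genes, was the farthest by these.

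Most interferon-stimulated genes were higher in the colonies. Of 20 measured members 13 were called lower in iPS cells (65%, against 4.23% of all genes) and 0 higher. The median difference was -1.79, and 12 lay at least 2-fold above the iPS mean on all 3 colony arrays, against 2.3% of all genes. Igtp (Irgm3), a GTPase of cell-autonomous immunity induced by interferon-gamma, measured 4.55, 4.51 and 4.08 in iPS cells and 8.57, 8.66 and 10.36 in the GFP-positive colonies, a difference of -4.82 ± 0.62 (SE), adjusted p = 0.00254, 28.2-fold lower in iPS cells. Oasl2, an oligoadenylate synthetase-like protein, measured 5.44, 5.23 and 5.21 against 8.89, 9.05 and 10.47, and Usp18, which removes ISG15 from proteins, 5.55, 5.71 and 5.41 against 7.95, 9.06 and 9.95. The lowest colony lay more than 2 log2 units above the highest iPS array for each, and replicate 3 was the highest. Igtp and Oasl2 were called in all 6 fits without 1 array. The count was 11 without GFP-positive replicate 1, 13 without replicate 2, 5 without replicate 3, 2 without iPS replicate 1 or 3 and 3 without iPS replicate 2. Irf7, the factor that amplifies type I interferon, measured 6.12, 6.19 and 5.96 against 7.53, 8.09 and 10.08, and Isg15 5.62, 5.73 and 5.65 against 6.96, 7.46 and 8.07. In leukemia Igtp lay at 7.99, 8.13 and 8.16, near the colonies, but Oasl2 at 6.71, 7.07 and 7.01 and Usp18 at 6.35, 6.52 and 6.5, below them.

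Parts of the receptor pathway were lower in iPS cells as well, among genes chosen after their values were seen. Ifngr1, the ligand-binding chain of the interferon-gamma receptor, measured 6.93, 6.82 and 6.97 on the iPS arrays against 10.1, 9.81 and 11.27 on the colonies, a difference of -3.49 ± 0.74 (SE), adjusted p = 0.0189, and Jak2, the kinase bound to the receptor, 5.96, 5.97 and 6.17 against 9.36, 8.75 and 9.29. Irf1 measured 6.46, 6.55 and 6.59 against 7.63, 7.36 and 8.4 and Irf2 5.42, 5.43 and 5.19 against 7.69, 7.07 and 8.28, and the iPS arrays were below the colonies for both. Ifngr2, the second chain, was not called, with 7.96, 8.0 and 7.95 against 7.06, 6.89 and 7.86. Of all 14 guanylate-binding and immunity-related GTPase genes with a probe set, 8 were called lower in iPS cells, against 4.23% of all genes, and 0 higher. The 8 became 6 without GFP-positive replicate 1, 8 without replicate 2, 5 without replicate 3, 3 without iPS replicate 1 or 3 and 4 without iPS replicate 2. Calls of Irf1, Gbp7 and Irgm2 held in all 6 fits without 1 array, those of Ifngr1 and Jak2 were lost in 5 and that of Irf2 in 4, among them all fits without an iPS array. The GTPases include Gbp7 with 4.73, 4.6 and 4.87 against 8.6, 8.16 and 9.97 and Irgm2 with 4.58, 4.54 and 4.91 against 7.98, 8.15 and 9.88. The promoters of Igtp and Irgm2 are shown because these neighbouring genes had large differences and their upstream windows hold letters of both classes of interferon element next to each other. Capitals mark GAAA followed by 2 bases of any kind and a second GAAA, the core of the interferon-stimulated response element (ISRE), and TTCNNNGAA, the gamma-activated sequence (GAS) bound by STAT factors. The windows are the 250 bases before the start in RefSeq build GRCm38.p6, at chr11:58199306-58199555, plus strand, and chr11:58214727-58214976, plus strand.
Igtp promoter: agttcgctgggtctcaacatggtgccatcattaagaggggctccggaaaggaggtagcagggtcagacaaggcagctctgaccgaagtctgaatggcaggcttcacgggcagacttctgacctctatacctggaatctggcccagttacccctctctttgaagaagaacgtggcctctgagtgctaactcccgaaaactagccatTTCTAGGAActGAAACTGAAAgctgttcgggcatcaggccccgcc
Irgm2 promoter: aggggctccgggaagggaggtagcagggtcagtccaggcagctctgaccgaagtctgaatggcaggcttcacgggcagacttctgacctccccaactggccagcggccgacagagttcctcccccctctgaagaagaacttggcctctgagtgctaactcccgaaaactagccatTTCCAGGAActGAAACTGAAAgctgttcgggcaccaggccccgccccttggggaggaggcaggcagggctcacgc
In Igtp the GAS letters lie at -45 to -37 and the ISRE letters at -34 to -25, counted from the start, and in Irgm2 at -75 to -67 and -64 to -55. The 2 windows share 196 bases in aligned blocks, with a longest identical run of 55 bases. The ISRE letters were found on either strand in 9 of 15 matched windows of the interferon list (60%), in 5.45% of the windows of genes called lower in iPS cells, in 2.39% of those called higher and in 2.97% of all 16918 matched genes. The GAS letters, which read the same on both strands, were in 20%, 6.27%, 5.53% and 6.83% of the same windows. The interferon list was assembled from known interferon-stimulated genes, so its share was fixed by how the list was chosen and is no result of these arrays. A match describes letters in the window and does not show a bound factor.

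Genes of antigen presentation by MHC class I were lower in iPS cells, from heavy chains to peptide transport and trimming. Of 12 measured genes 9 were called lower (75%, against 4.23% of all genes) and 0 higher. The median was -2.09, and 8 lay at least 2-fold above the iPS mean on all 3 colonies, against 2.3% of all genes. H2-K1, a classical class I heavy chain, measured 7.17, 7.23 and 7.04 in iPS cells and 9.96, 9.37 and 11.05 in the GFP-positive colonies, a difference of -2.98 ± 0.61 (SE), adjusted p = 0.0162. Tap1, a subunit of the peptide transporter, measured 6.8, 6.88 and 7.01 against 9.35, 8.91 and 10.65, and Tap2, its partner, 5.1, 5.14 and 5.24 against 6.84, 6.29 and 7.71. Psmb9 and Psmb8, catalytic subunits of the immunoproteasome, measured 6.55, 5.95 and 5.72 against 8.54, 8.15 and 10.43 and 6.48, 6.33 and 6.0 against 8.97, 8.46 and 9.84. Erap1, which trims peptides in the endoplasmic reticulum, measured 5.15, 5.29 and 5.19 against 7.77, 7.71 and 9.2. In all these genes the colonies lay above the iPS arrays without overlap, and replicate 3 was the highest. B2m, the light chain, measured 9.84, 9.71 and 9.8 against 11.92, 11.51 and 12.85 and missed the threshold with -2.31 ± 0.68 (SE), adjusted p = 0.0558. Nlrc5, the transactivator of class I genes, measured 5.63, 5.68 and 5.7 against 7.04, 6.44 and 8.15 with an adjusted p of 0.0636. Tap1 and Erap1 were called in all 6 fits without 1 array. The count was 3 without GFP-positive replicate 1 or 3, 11 without replicate 2 and 2 without any 1 iPS array.

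Leukocyte genes were higher in the colonies too, most of all in replicate 3. Of 25 measured pan-haematopoietic genes 7 were called lower in iPS cells (28%, against 4.23% of all genes) and 0 higher. Ptprc (CD45), the phosphatase on all nucleated blood cells, measured 5.24, 5.7 and 5.28 on the iPS arrays against 8.4, 8.83 and 10.75 on the colonies, a difference of -3.91 ± 0.73 (SE), adjusted p = 0.0113, and 11.75, 11.69 and 11.76 in leukemia. Lcp1, a leukocyte actin bundler, measured 5.64, 6.12 and 5.51 against 8.83, 8.23 and 9.47, and Ikzf1, a lymphoid zinc finger factor, 4.5, 5.59 and 4.96 against 6.69, 6.41 and 8.66. The colonies thus lay between iPS cells and leukemia, and all were above the iPS arrays. The count was 4 without GFP-positive replicate 1, 9 without replicate 2, 3 without replicate 3, 1 without iPS replicate 1 or 3 and 2 without iPS replicate 2, and Lcp1 was called in all 6. Macrophage and granulocyte genes, 24 measured, were at least 2-fold above the iPS mean for 3 genes in replicate 1, 2 in replicate 2 and 16 in replicate 3. Of all 22180 genes, 1410, 750 and 1888 lay that far above it in the same order. C1qb, a complement subunit made by macrophages, measured 5.4, 5.71 and 5.69 against 6.19, 6.64 and 10.87, and Ctss, a lysosomal protease of antigen-presenting cells, 6.91, 7.15 and 6.44 against 7.36, 7.8 and 11.51. H2-Ab1, a chain of MHC class II, was high on the same array, with 5.9, 6.44 and 5.95 against 7.28, 7.07 and 12.58, and was not called (adjusted p = 0.178). Among 24 macrophage and granulocyte genes there was 1 call (4.17%, against 10.4% of all genes). It was Ltf, with 5.39, 5.39 and 5.77 against 7.73, 6.4 and 9.63, which was lost without any 1 iPS array or without GFP-positive replicate 1 or 3. The mean of the macrophage list was 8.02 in replicate 3 against 6.1 and 6.06 in replicates 1 and 2 and between 5.74 and 5.85 on the iPS arrays. Of the 20 interferon genes, 12 lay at least 2-fold above the iPS mean in replicate 1, 14 in replicate 2 and 16 in replicate 3, beside the numbers over all genes given above. Whether the levels of macrophage and interferon genes are linked was not tested.

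**Figure D5:**
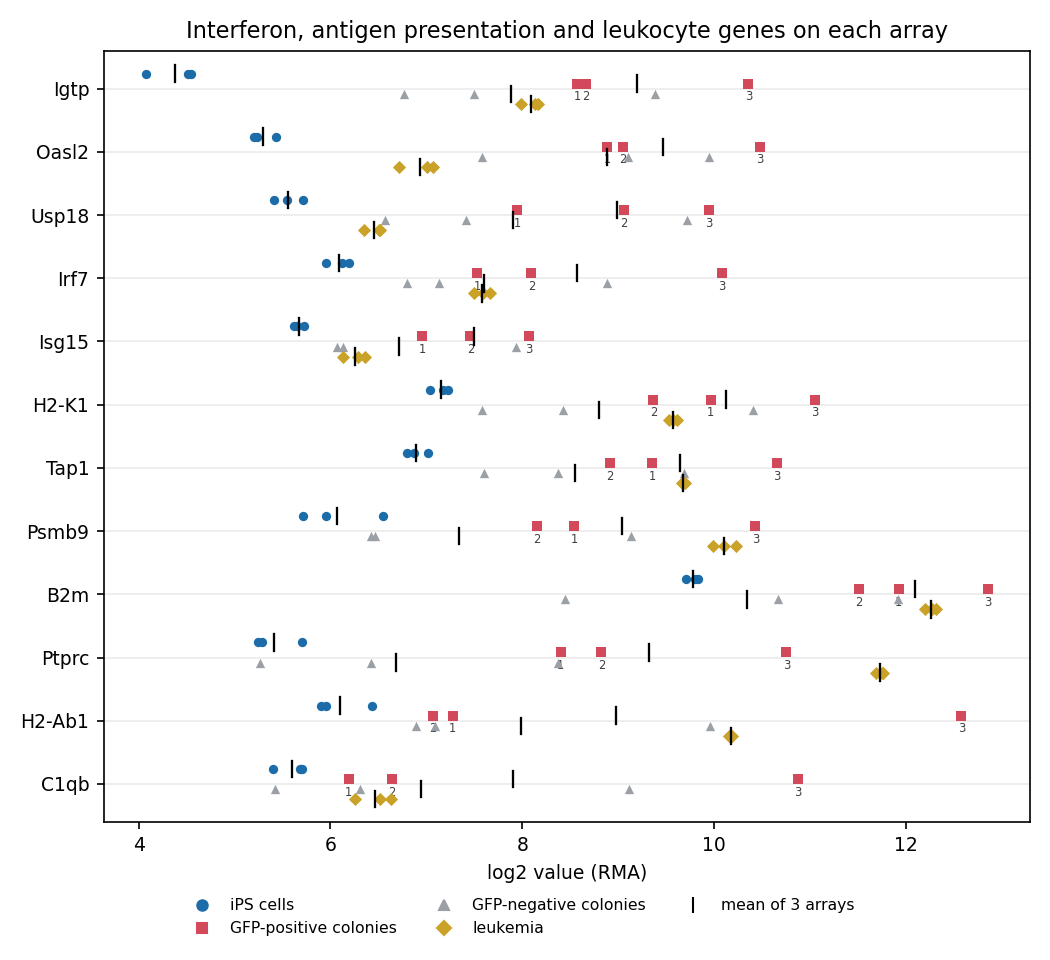
Log2 values (x axis) of interferon-stimulated, MHC and leukocyte genes on each array (points) with the mean of 3 arrays (black ticks), for the 4 groups. Igtp, Oasl2, H2-K1 and Tap1 are higher on all 3 GFP-positive colonies than on the iPS arrays, while H2-Ab1 and C1qb are far higher in replicate 3 than in replicates 1 and 2.

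Most T lineage genes were not called, and the share called (4.55%) was below that of all genes (10.4%). Of 22 measured genes 1 was called, Bcl11b, a factor of T cell commitment, with 6.19, 6.46 and 6.47 against 7.41, 7.25 and 7.22, a difference of -0.91 ± 0.25 (SE), adjusted p = 0.0464, and 11.01, 10.9 and 10.96 in leukemia. Cd3e, a chain of the T cell receptor complex, measured 6.43, 6.85 and 6.63 in iPS cells and 8.5, 8.26 and 9.57 in the GFP-positive colonies and was not called, with -2.14 ± 0.82 (SE), adjusted p = 0.122. All 3 colonies were above the iPS arrays for Cd3e, and leukemia was at 11.86, 11.83 and 11.92. Cd3g and Cd3d measured 4.57, 5.27 and 4.38 against 5.25, 4.63 and 7.05 and 5.07, 5.82 and 5.19 against 5.83, 5.18 and 6.7, with replicate 2 inside the range of the iPS arrays for both and replicate 3 above it. The call of Bcl11b was lost in each of the 6 fits without 1 array, with adjusted p up to 0.155. Among 18 measured Notch pathway and target genes 2 were called higher and 2 lower (22.2% in all, against 10.4% of all genes). Nrarp, a feedback inhibitor of Notch, measured 6.01, 6.23 and 6.2 against 8.01, 7.76 and 7.77, a difference of -1.7 ± 0.27 (SE), adjusted p = 0.00647, and held in all 6 fits. Notch1 itself measured 8.59, 8.66 and 8.6 against 8.78, 8.98 and 9.07, a difference of -0.33 ± 0.09 (SE), adjusted p = 0.0493, against 11.33, 11.31 and 11.33 in leukemia, and its call held without GFP-positive replicate 1 and was lost in the other 5 fits. Rbpj, the nuclear partner of Notch, differed by 0.77 ± 0.21 (SE), adjusted p = 0.0421, and the ligand Jag2 by 0.73 ± 0.14 (SE), adjusted p = 0.0116, both higher in iPS cells. Jag2 lost its call without iPS replicate 1, and Rbpj in each fit but that without GFP-positive replicate 2. Whether any NOTCH1 transgene adds to the Notch1 probe set was not tested.

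Genes of cholesterol synthesis were higher in the colonies. Of 14 measured genes 8 were called lower in iPS cells (57.1%, against 4.23% of all genes) and 0 higher, with a median of -0.956. Insig1, the sterol-regulated anchor of SREBP processing, measured 7.74, 7.65 and 7.56 on the iPS arrays against 9.49, 9.32 and 8.85 on the colonies, a difference of -1.57 ± 0.18 (SE), adjusted p = 0.00179. Fdft1, squalene synthase, measured 9.31, 9.24 and 9.34 against 11.14, 10.7 and 10.65, Hmgcs1, which makes HMG-CoA, 8.56, 8.52 and 8.38 against 10.05, 9.39 and 9.31, and Srebf2, the transcription factor of the pathway, 9.73, 9.56 and 9.53 against 10.86, 10.41 and 10.57. The groups did not overlap for these 4 genes, and replicate 1 was the highest colony. Calls of Insig1 and Fdft1 held in all 6 fits without 1 array. The count was 3 without GFP-positive replicate 1, 7 without replicate 2 or 3, 2 without iPS replicate 1 or 2 and 3 without iPS replicate 3. Mvk and Pmvk, kinases earlier in the pathway, differed by -0.22 and -0.13 and were not called.

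Genes of cell division and chromatin were called at about the share of all genes (10.4%). Of 19 measured replication and mitosis genes 2 were called higher in iPS cells, Birc5 (survivin) with 10.22, 10.22 and 10.31 against 8.64, 9.53 and 8.92 and Cdk1 with 11.2, 11.3 and 11.25 against 10.01, 10.73 and 10.29, and the median was 0.73. The share called was 10.5%, but 15 of the 19 had all iPS arrays above all colonies, against 21% of all genes. Both calls were lost without GFP-positive replicate 1 or 3 and without any 1 iPS array, and without replicate 2 the count was 4. Of 18 cell cycle inhibitors and p53 targets 2 (11.1%) were called lower, Plk2 with 8.73, 8.8 and 8.8 against 10.83, 9.91 and 10.91 and Btg2 with 7.68, 7.98 and 7.68 against 9.18, 8.69 and 9.27. Cdkn1a (p21) measured 10.31, 10.39 and 10.37 against 10.91, 10.44 and 11.25 and was not called. Of 23 Polycomb genes 3 (13%) were called: Epop, a PRC2-associated protein, with 1.33 ± 0.29 (SE), adjusted p = 0.0215, Rbbp4 with 0.63 ± 0.17 (SE), adjusted p = 0.0399 and, lower in iPS cells, Ezh1 with -0.88 ± 0.25 (SE), adjusted p = 0.0491. Tet1, the 5-methylcytosine oxidase of naive cells, measured 10.86, 10.83 and 10.93 against 9.14, 10.66 and 7.3 and was not called. Apobec1, a cytidine deaminase, was lower in iPS cells with 6.9, 6.61 and 6.76 against 7.77, 8.27 and 10.34. The calls of Plk2, Btg2, Epop, Rbbp4 and Ezh1 were lost without GFP-positive replicate 1 or 3 and without any 1 iPS array, and that of Apobec1 without any 1 iPS array. Gldc, the glycine cleavage enzyme known to be high in stem cells, measured 9.4, 9.61 and 9.34 against 8.5, 9.65 and 5.88 and was not called. Pgam1 was the single call of 13 glycolysis genes, with 0.66 ± 0.17 (SE), adjusted p = 0.034, and it was lost in 5 of the 6 fits.

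Among imprinted genes the Dlk1-Dio3 region, often silenced in iPS lines of low developmental potential, gave 1 call of 4 genes (25%, against 10.4% of all genes). Meg3 (Gtl2) measured 5.88, 5.93 and 5.78 in iPS cells and 5.41, 5.53 and 5.53 in the GFP-positive colonies and Rian 6.88, 6.65 and 6.77 against 6.59, 6.46 and 5.98, neither of which was called, with iPS arrays above the colonies. Dio3 was called higher, with 4.88, 5.18 and 4.81 against 4.27, 4.02 and 4.13, a difference of 0.82 ± 0.14 (SE), adjusted p = 0.00931, and its call held in all 6 fits without 1 array. Outside the region 2 of 19 were called (10.5%), about the share of all genes (10.4%). These were Grb10, an adaptor that restrains growth, with 9.62, 9.6 and 9.55 against 7.27, 8.44 and 6.44, and Plagl1 with 7.26, 7.35 and 7.52 against 6.41, 6.81 and 5.6. Neither call held without any 1 iPS array or without GFP-positive replicate 1. Peg3 measured 7.18, 7.27 and 7.24 against 10.04, 10.8 and 6.43 and was not called, with replicates 1 and 2 above the iPS arrays and replicate 3 below. Of 16 Hox genes 4 were called higher in iPS cells, against 6.15% of all genes, and 0 lower. All 4 differed by less than 2-fold, led by Hoxd10 with 6.8, 6.7 and 6.77 against 6.17, 5.98 and 5.93. The colonies were near the leukemia level of Hoxd10, at 5.98, 5.97 and 6.07. Without any 1 iPS array or without GFP-positive replicate 1 only Hoxd10 was called, and without GFP-positive replicate 2 or 3 the number was 2 or 4. In FGF and Wnt signalling 5 of 26 were called higher and 1 lower, against 6.15% and 4.23% of all genes. Among them were Sfrp1, a secreted Wnt antagonist, with 1.43 ± 0.32 (SE), adjusted p = 0.0233, and Fgf17 with 0.95 ± 0.17 (SE), adjusted p = 0.00974 on one side, and the ligand Wnt4 with -1.62 ± 0.42 (SE), adjusted p = 0.0363 on the other. Of the 6 calls Fgf17 alone held in all 6 fits without 1 array, where 1 to 6 were called higher and 0 to 2 lower, 3 and 1 of them without GFP-positive replicate 3. Lineage markers of primitive endoderm and trophoblast gave 1 call of 16 (6.25%, against 10.4% of all genes). It was Gata2 with 6.76, 6.5 and 6.83 against 9.6, 8.11 and 9.0, while Elf5, a trophoblast and mammary factor, measured 4.85, 4.51 and 4.53 against 7.26, 6.1 and 8.25 with an adjusted p of 0.0561.

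The other genes with the largest differences came from several tissues. Higher in iPS cells were Spink1, a trypsin inhibitor, with 10.79, 10.73 and 10.75 on the iPS arrays against 6.04, 6.36 and 5.13 on the colonies, Saa3, an acute-phase protein, with 8.96, 9.03 and 9.18 against 5.12, 5.92 and 6.56, and Slc13a5, a citrate transporter, with 8.21, 8.16 and 8.22 against 4.77, 5.8 and 4.84. Gli1, the readout of Hedgehog signalling, measured 9.68, 9.78 and 9.71 against 6.6, 7.79 and 6.18, Olig2, a neural basic helix-loop-helix factor, 7.65, 7.98 and 7.82 against 4.85, 4.91 and 5.17, and Accsl 8.47, 8.23 and 8.21 against 5.46, 5.78 and 4.74. In all 6 genes the colonies lay below the iPS arrays by more than 1 log2 unit. Lower in iPS cells were Gabrp, a GABA receptor subunit found in epithelia, with 6.0, 5.65 and 5.83 against 10.2, 10.24 and 13.11, Mal, a lipid-raft proteolipid of T cells and polarized epithelia, with 6.53, 6.82 and 6.42 against 11.73, 11.05 and 12.52, and its relative Mall with 5.59, 5.16 and 5.25 against 10.3, 10.13 and 11.55. Mal lay at 6.5, 6.08 and 6.59 in leukemia, near the iPS arrays. Ly6c1 and Ly6c2, surface proteins of monocytes and some T cells, measured 3.61, 3.91 and 3.74 against 8.34, 7.9 and 10.58 and 5.51, 5.08 and 5.18 against 10.41, 9.5 and 11.21. In leukemia Ly6c1 lay at 4.23, 3.94 and 4.1 and Ly6c2 at 8.07, 8.53 and 8.28, so the pair differed there. Adgrg7, an adhesion receptor, measured 4.83, 4.84 and 4.98 against 9.63, 8.57 and 11.3, Atp10b, a lipid flippase, 4.74, 5.0 and 4.92 against 9.89, 8.96 and 10.25, and Mboat1, a membrane acyltransferase, 6.4, 6.37 and 6.22 against 11.17, 10.62 and 11.5. The colonies were above the iPS arrays by more than 2 log2 units for each of them. Calls of the 6 genes that were higher in iPS cells held in all 6 fits without 1 array, and each of the 8 that were lower lost its call in 2 to 5 of them.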

How the data were processed

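The authors deposited a table of log2 values from Affymetrix arrays of Trizol-extracted RNA, made with RMA per the submitters' processing notes; its version is not given in the sources used here. RMA equalises the arrays' distributions (medians 5.76 to 5.82), so a shift of most genes one way would be removed. Of 41345 probe sets, 23521 had 1 gene symbol, and these gave 22180 genes. A single limma fit (3.58.1, R 4.3.3) on all 12 arrays in 4 groups gave the contrast, with Benjamini-Hochberg adjustment over all genes and a threshold of 0.05. No filter on low values was applied, and no detection values were used, so low values cannot be told from background. Precision is limited by how many arrays there were. The 15 largest increases and 15 largest decreases among called genes whose groups did not overlap are named, with list members of the largest differences or with a described role and a fixed panel; clone, predicted, locus and Riken names were passed over. Members and lists were chosen with earlier results of these data known. The main fit did not pair arrays by replicate number. Promoters and miRNA sequences came from RefSeq tables of build GRCm38.p6, and 21994 genes matched its gene table. Alternatives covered normalization, filters, weights, probe set choice, the threshold, the replicate block and left-out arrays.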

Additional observations from a re-analysis of the deposited data

How the results depend on the processing

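The direction of all 2304 calls held under each alternative in which the gene was still tested, except for 1 gene when probe sets were averaged (2303). This was largely fixed in advance and does not measure robustness. Several alternatives keep the same group means. For 1363 of the 1365 higher calls and all 939 lower calls the groups did not overlap, so leaving out 1 array could not turn them. The counts did move. Array weights gave 3910 higher and 3074 lower, and 1 weight per group 2351 and 1942. An adjusted p of 0.01 gave 331 and 154. Leaving out GFP-positive replicate 3 and GFP-negative replicate 1 together gave 2475 and 2060, and GFP-negative replicate 1 alone, added after seeing the data, 2709 and 2099. Leaving out 1 array of the compared groups gave 405 to 1995 higher and 188 to 1427 lower. The cause was not tested. After each gene's group mean was subtracted, same-numbered arrays of the compared groups correlated at 0.0119, -0.0572 and 0.0325. Differently numbered arrays correlated at -0.063 to 0.0532. With so few arrays this cannot settle whether the numbers pair the arrays. With the replicate block the counts were 1141 and 774, and with the block on the 6 compared arrays alone, added after seeing the data, 500 and 782. The other alternatives (6 arrays only, cyclic loess, a mean above 6, averaged probe sets, and trended robust variances) kept both counts within 1.5 times. Signal over background was not measured, so low values cannot be told from background.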

Other observations

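Of 467 genes of microRNAs (miRNAs) tested, 16 were higher in iPS cells (3.43%, against 6.15% of all genes) and 1 was lower (0.214%, against 4.23%). Without GFP-positive replicate 1, 2 or 3 these were 7 and 0, 14 and 5, and 15 and 2, and without iPS replicate 1, 2 or 3 they were 5 and 0, 4 and 0, and 3 and 1. Mir290a, singled out after its values were seen, belongs to a cluster known as the most abundant miRNAs of mouse embryonic stem cells. It measured 5.75, 5.85 and 6.08 on the iPS arrays and 3.93, 5.11 and 4.26 on the GFP-positive arrays, a difference of 1.46 ± 0.29 (SE) with an adjusted p of 0.0142 in limma. All 3 colonies lay below the iPS arrays, and replicate 2 was the closest. The call was lost without iPS replicate 2 or 3, with adjusted p up to 0.0646. The mature forms are shown because the 3p arm carries the AAGUGC seed by which this cluster is known. They are printed 5′ to 3′ from RefSeq build GRCm38.p6, plus strand, at chr7:3218639-3218660 and chr7:3218674-3218697, with the seed (bases 2 to 8) in capitals.
mmu-miR-290a-5p: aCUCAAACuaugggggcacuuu
mmu-miR-290a-3p: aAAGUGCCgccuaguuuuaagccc
The probe set reads the gene or hairpin, and the mature forms were not measured.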
